A study of Mus musculus with 11 samples.

Results

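The genes described here are Slc1a2, Slc1a3, Glul, Aqp4, Slc4a4, Gja1, Gjb6 and Aldh1l1, which serve glutamate uptake, water and bicarbonate movement, gap junctions and folate metabolism in astrocytes. They were chosen by name, and 8 of 8 were found among the 25938 gene symbols of the deposited count matrix. Their levels were followed over the deposited cell classes and, within the class named Astrocytes, over 4 dosing groups. The data are single-nucleus RNA sequencing of brains from mice whose labels give a homozygous knock-in of the human transferrin receptor (TfR), with 110304 nuclei in 11 libraries, of which 12720 nuclei were named Astrocytes.

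Dosing was intravenous and was given 4 times, with collection at 72 h from the final injection. The control group received ATV:BACE1, a transport vehicle without oligonucleotide whose name also holds BACE1, at 57 mg/kg (n = 3 libraries). OTV:Malat1, an antisense oligonucleotide (ASO) against Malat1 on the transport vehicle, was given at 60 mg/kg (n = 3). nonTV:Malat1, titled RSV-ASO and by its name without that vehicle, was given at 60 mg/kg (n = 3). Malat1 ASO on its own was given at 2.5 mg/kg (n = 2). The libraries carry replicate numbers 1, 4 and 5. Number 1 was female at 2.33 months, number 4 male at 2.57 months and number 5 male at 2.33 months, and each number had its own batch number in the deposited metadata. Numbers 4 and 5 thus differ in batch and age but not in sex, and numbers 1 and 5 in batch and sex but not in age. Neither sex nor age can be told apart from batch. The labels give the region as posterior brain and the metadata as cortex. The metadata name the strain C57BL/6J and no knock-in.

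Astrocytes clear glutamate released by neurons through the transporters Slc1a2 (GLT-1) and Slc1a3 (GLAST). Glutamine synthetase, encoded by Glul, turns the glutamate into glutamine. Aqp4 is the water channel of the endfeet on blood vessels, and Slc4a4 encodes the sodium bicarbonate cotransporter NBCe1. Gja1 (connexin 43) and Gjb6 (connexin 30) form the gap junctions that couple astrocytes, and Aldh1l1 is a cytosolic enzyme of folate metabolism widely used as an astrocyte marker.

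The label Astrocytes was checked against 8 other markers. Of these, 7 had their highest mean level in Astrocytes: Gfap, Aldoc, Sox9, Fgfr3, Ntsr2, Acsbg1 and Slc39a12. For Sox9 the margin over Glia was small (99.8 against 97.6 CPM, a gene's UMIs scaled to the same total in each sum). The exception was S1pr1, a receptor also made by endothelium, which was highest in Vascular endothelium. Astrocyte nuclei numbered 847 to 1732 per library, with a median of 890 to 1705 UMIs (unique molecular identifiers, each counting 1 captured RNA) per nucleus. OTV:Malat1 replicate 5 had the lowest median and the lowest share of Astrocytes with a class prediction score of at least 0.8, 80.1% against 86.4% to 95.1% in the other libraries. Of the 108788 distinct barcode sequences, 1495 occurred in more than 1 library. Malat1, the targeted gene, was lower in the OTV:Malat1 libraries, as given below with the dosing groups.

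In mm10 coordinates of GENCODE M21, Slc1a2 spans chr2:102658659-102790784 and Slc1a3 chr15:8634124-8710764 (minus strand). Glul lies at chr1:153899944-153909723 and Slc4a4 at chr5:88886818-89239653. Gja1 lies at chr10:56377330-56402513, Gjb6 at chr14:57123303-57133611 (minus strand) and Aldh1l1 at chr6:90486427-90600203. Slc1a2 overlaps the antisense gene Gm13872, Glul overlaps Teddm2 on the other strand, and Aldh1l1 overlaps Gm45901 and the antisense gene Gm15756. All of these partners are in the matrix. Whether counting used strand is not given in the sources used here, so reads of pairs on opposite strands may not have been separated. Gm45901 lies on the same strand as Aldh1l1, so strand would not separate the reads of that pair.

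Upstream sequence is shown for the members that differed between replicate numbers in Astrocytes (below) and whose 250 bases before the RefSeq start overlap no annotated exon. These are Slc1a3 (chr15:8710808-8711057, minus strand), an internal start of Slc4a4 (chr5:89027716-89027965, plus strand) and Gjb6 (chr14:57133612-57133861, minus strand), from RefSeq on GRCm38.p6. Capitals mark CCAAT and TATAAA on either strand, which do not overlap each other in these windows.
Slc1a3: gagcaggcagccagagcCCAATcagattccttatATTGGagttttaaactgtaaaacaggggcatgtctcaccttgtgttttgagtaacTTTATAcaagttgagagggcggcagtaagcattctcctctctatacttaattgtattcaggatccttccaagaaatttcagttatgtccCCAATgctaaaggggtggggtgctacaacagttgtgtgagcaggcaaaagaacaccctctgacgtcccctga
Slc4a4: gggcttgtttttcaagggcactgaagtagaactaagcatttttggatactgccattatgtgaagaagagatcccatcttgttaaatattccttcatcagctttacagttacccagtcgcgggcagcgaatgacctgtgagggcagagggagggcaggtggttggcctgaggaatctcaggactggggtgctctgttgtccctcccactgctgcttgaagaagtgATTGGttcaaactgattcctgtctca
Gjb6: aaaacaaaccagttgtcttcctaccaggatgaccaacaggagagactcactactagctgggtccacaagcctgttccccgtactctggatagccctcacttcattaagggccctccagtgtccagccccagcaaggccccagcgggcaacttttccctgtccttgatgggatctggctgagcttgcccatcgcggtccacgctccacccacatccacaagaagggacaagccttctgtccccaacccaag
CCAAT occurs in the Slc1a3 and Slc4a4 windows and TATAAA in that of Slc1a3, and the Gjb6 window holds neither. Among 32851 upstream windows of this length, 33.8% hold CCAAT and 12.4% hold TATAAA on either strand. The match is one of letters and shows no binding.

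Across the classes, 7 of the 8 genes had their highest mean level in Astrocytes, and Gjb6 was higher in Leptomeningeal cells. Levels are CPM of the UMIs summed over a library's nuclei of a class, in 9 classes with at least 20 nuclei in 6 or more libraries. The classes were named by the authors from expression of the same nuclei, so the order is a description without a test. Levels of different genes were not compared, because transcript length was not taken out. In each of the 11 libraries Astrocytes were the highest class for those 7 genes, and in none for Gjb6.

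**Figure D1:**
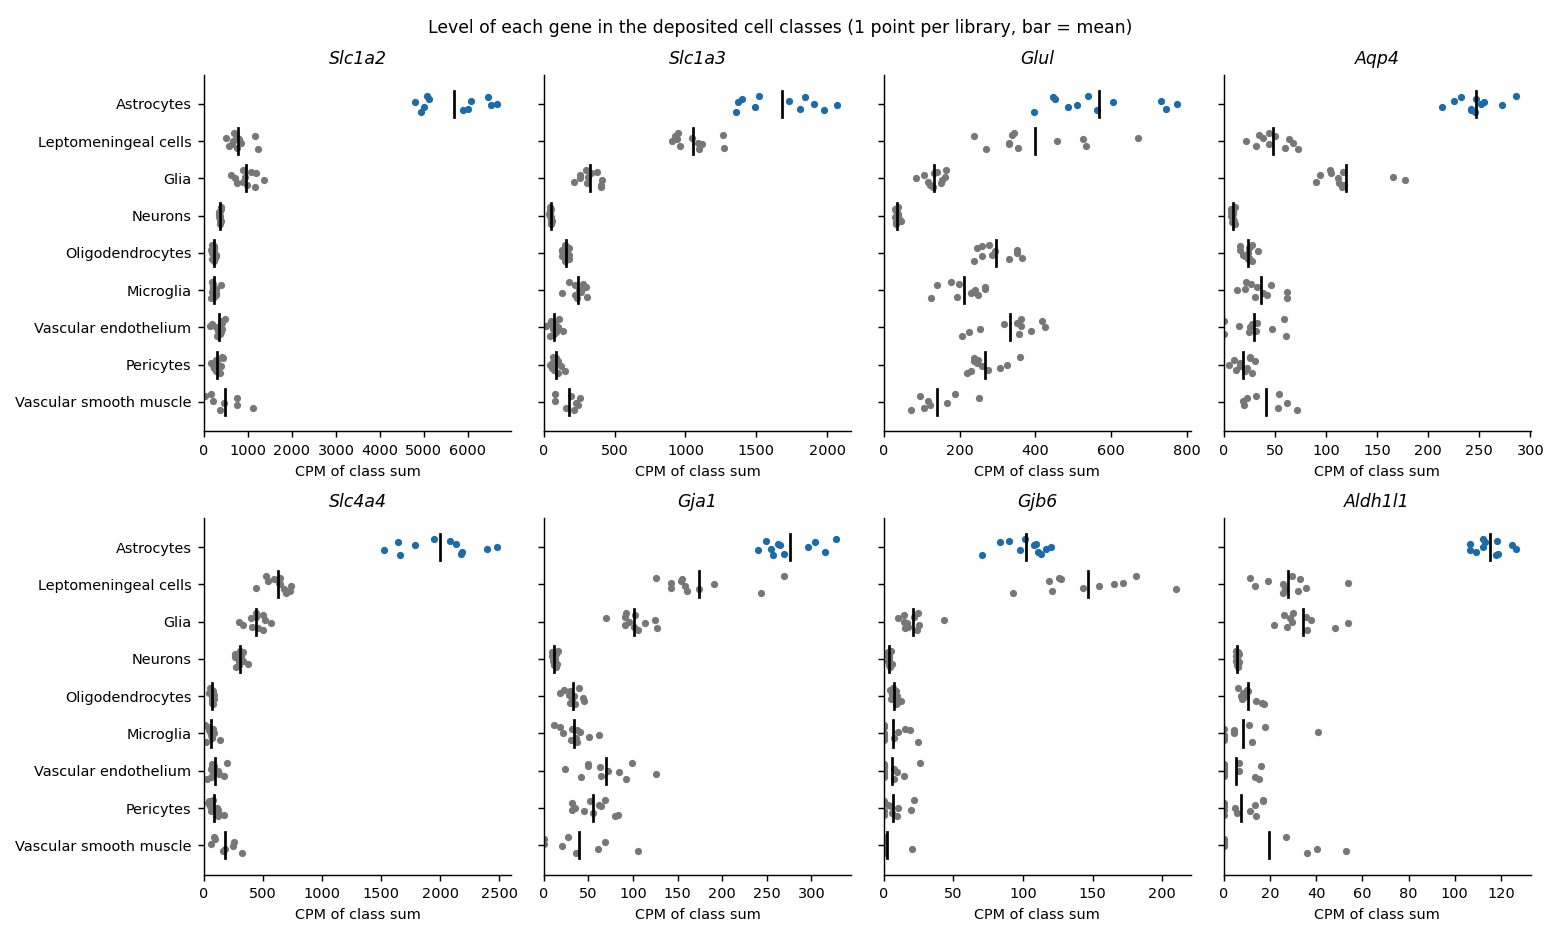
Level of each gene in CPM of the class sum (x axis, linear, from 0; scales differ between genes) in 9 deposited classes (rows); 1 point is 1 library and the bar is the mean. Astrocyte points (blue) lie apart from every other class for Slc1a2, Slc1a3, Aqp4, Slc4a4 and Aldh1l1. They overlap Leptomeningeal cells for Glul and Gja1, and for Glul also Vascular endothelium. For Gjb6 they lie mostly below Leptomeningeal cells.

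Slc1a2 was the member with the clearest separation. Its level in Astrocytes was 5689 ± 713 CPM (SD, n = 11), with a lowest library of 4797, a median of 5900 and a highest of 6658 CPM. The next class was Glia with 959 ± 224 CPM (n = 11), whose libraries did not reach the astrocyte range. The level in Astrocytes was 6.28 ± 1.91 times that in Glia of the same library. From Glia down to Oligodendrocytes, at 218 ± 39.4 CPM, the ranges of each pair of neighbours overlapped, so that order is not resolved. Neurons held 361 ± 20.8 CPM, which is 6.43% ± 0.774 of the astrocyte level. The 76211 neuronal nuclei, with a median of 3926 UMIs each, carried 48.9% of all Slc1a2 UMIs, and Astrocytes carried 46.6%.

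Slc1a3 followed another order. Astrocytes held 1680 ± 260 CPM (lowest 1359, median 1733, highest 2067), and Leptomeningeal cells came next with 1052 ± 131 CPM (lowest 902, median 1047, highest 1275). These ranges did not overlap, with a mean ratio of 1.61 ± 0.263. Glia followed apart from these at 325 ± 68.1 CPM, and Neurons were lowest at 47.8 ± 5.37 CPM.

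Glul was the most widely spread member. Astrocytes held 567 ± 130 CPM, Leptomeningeal cells 399 ± 131, Vascular endothelium 333 ± 74.4, Oligodendrocytes 296 ± 46.0 and Pericytes 268 ± 44.2 CPM (n = 11 each). Each neighbouring pair in this order overlapped, although Astrocytes exceeded every other class within each of the 11 libraries. Neurons stood apart at the low end with 35.4 ± 4.89 CPM. Expressed as a percentage of the astrocyte level of the same library, Oligodendrocytes held 53.0% of Glul but 3.50% of Slc4a4. Vascular endothelium held 61.1% of Glul but 4.38% of Slc1a3. The Pericytes class also carried endothelial markers (Cldn5, Flt1, Pecam1 and Abcb1a) at a summed 7732 CPM, against 9687 CPM in Vascular endothelium, so its Glul level cannot be assigned to pericytes alone.

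Aqp4 stood at 246 ± 20.3 CPM in Astrocytes (lowest 213, median 245, highest 286) and at 119 ± 27.4 CPM in Glia, with no overlap. Glia was the class closest to Astrocytes for Aqp4, at 48.2% of the astrocyte level, whereas its Slc1a2 stood at 17.1%. That class also held markers of ependyma (Foxj1, Ccdc153, Tmem212 and Cfap126) at a summed 756 CPM, against 53.7 CPM in Astrocytes, and 4 markers of choroid plexus (Ttr, Kl, Folr1 and Otx2) at a summed 4072 CPM, against 1090 CPM in Astrocytes. Slc4a4 was at 2002 ± 317 CPM in Astrocytes (lowest 1525, median 2082, highest 2480), 623 ± 92.9 in Leptomeningeal cells, 441 ± 80.6 in Glia and 302 ± 33.8 CPM in Neurons. The astrocyte range lay above the others, and the ranges of the following classes overlapped with their neighbours. Slc4a4 was the member with the largest neuronal part: Neurons held 15.3% of the astrocyte level and 68.4% of all its UMIs, with 28.0% in Astrocytes.

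The connexins differed from each other in where they were highest. Gja1 was at 277 ± 29.3 CPM in Astrocytes (lowest 240, median 265, highest 328) and at 174 ± 44.4 CPM in Leptomeningeal cells (lowest 126, median 159, highest 270). These ranges overlapped, but the ratio within a library was above 1 in each of 11, at 1.65 ± 0.289. Gjb6 was at 102 ± 15.3 CPM in Astrocytes (lowest 70.2, median 108, highest 120) and at 146 ± 33.7 CPM in Leptomeningeal cells (lowest 93.1, median 143, highest 210). The ratio of Astrocytes to Leptomeningeal cells for Gjb6 ran from 0.529 to 0.938 over the 11 libraries. In the other 7 classes Gjb6 was at most 20.8 ± 8.98 CPM, the mean of Glia. The name Leptomeningeal cells fits its markers, as 5 of 5 (Col1a1, Col1a2, Dcn, Slc6a13 and Slc47a1) were highest there. Their sum was 1076 CPM there and 57.6 CPM in Astrocytes.

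Aldh1l1 had 115 ± 6.77 CPM in Astrocytes (lowest 107, median 113, highest 127) and 34.2 ± 9.58 CPM in Glia. The astrocyte range lay apart from Glia, and the rest of the order overlapped. Neurons held 5.96 ± 0.467 CPM.

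The low levels outside Astrocytes were set beside a gene known for choroid plexus. Ttr, the transthyretin gene, was at 1066 ± 274 CPM in Astrocytes and was lowest in Neurons, at 355 ± 98.2 CPM. It was highest in Glia, at 3515 ± 1007 CPM, and the means of the other 6 classes lay between 744 CPM in Pericytes and 1909 CPM in Vascular smooth muscle. Where this Ttr came from was not tested. For the members, the mean level in Neurons ran from 2.89% (Slc1a3) to 15.3% (Slc4a4) of that in Astrocytes, and in Oligodendrocytes from 3.50% (Slc4a4) to 53.0% (Glul).

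Shares of nuclei with at least 1 UMI were compared after thinning each nucleus to 1000 UMIs, which kept 76.9% of Astrocytes. Slc1a2 was then seen in 94.8% ± 1.39 of astrocyte nuclei (n = 11 libraries), Slc4a4 in 78.5% ± 4.96, Slc1a3 in 74.5% ± 4.51 and Glul in 41.4% ± 6.10. Gja1 was seen in 22.7% ± 2.44, Aqp4 in 18.7% ± 2.07, Aldh1l1 in 11.1% ± 1.27 and Gjb6 in 9.70% ± 1.41. In Neurons the shares were 23.8% ± 1.08 for Slc1a2, 21.6% ± 2.04 for Slc4a4, 3.76% ± 0.446 for Slc1a3 and 3.46% ± 0.493 for Glul. Gja1, Aqp4, Aldh1l1 and Gjb6 were at 1.25% or less of neuronal nuclei. For Gjb6 the share was 14.1% ± 3.75 in Leptomeningeal cells, in the same direction as its CPM. Before thinning, Slc1a2 was seen in 94.2% of astrocyte nuclei (median 1402 UMIs) and 52.3% of neuronal nuclei (median 3926 UMIs).

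The authors' clusters divide these classes further. Cluster 4 held 11208 of the Astrocytes, with Slc1a2 at 6181 ± 666 CPM (n = 11). The 913 Astrocytes in cluster 5, of which 18.7% were called doublets, had Slc1a2 at 3818 ± 435 CPM. The 207 Astrocytes in cluster 6, with a median prediction score of 0.464, had Slc1a2 at 519 CPM over all libraries together, but Gjb6 at 98.7 CPM. Cluster 6 is also the cluster of most Leptomeningeal cells. Its 1624 nuclei of that name had Slc1a2 at 223 ± 50.3 CPM, Slc1a3 at 1045 ± 198 and Gjb6 at 154 ± 40.9 CPM (n = 11). The 159 Leptomeningeal nuclei in cluster 4 had Slc1a2 at 3265 CPM. Within Neurons, Slc4a4 was at 719 ± 73.1 CPM in cluster 2, against 167 ± 17.8 in cluster 0 and 136 ± 11.1 CPM in cluster 1. Slc1a2 was highest in the neuronal nuclei of cluster 5 among clusters with all 11 libraries, at 1321 ± 106 CPM. Slc1a3 was at 355 ± 44.5 CPM there, and 45.3% of those nuclei were called doublets.

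By Pearson correlation over the 9 classes with the mean standardised profile of the members, the most alike of 5078 other genes were Phka1 (r = 0.972), Gfap (0.959), Plpp3 (0.958), Igfbp5 (0.958), Ahcyl1 (0.951), F3 (0.949), Gli2 (0.947) and Ednrb (0.946). Phka1 encodes a subunit of phosphorylase kinase and Gfap the astrocyte intermediate filament. The members themselves did not share 1 pattern, as r between pairs of them ran from 0.125 (Glul with Slc4a4) to 0.923 (Slc1a2 with Slc4a4). Glul was also at 0.343 with Aldh1l1 and 0.371 with Slc1a2. The points are classes of the same libraries, so the values describe likeness of pattern and nothing more.

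The dosing groups were then compared within Astrocytes, to see whether these genes differed with an oligonucleotide against Malat1, free or on a carrier. The control also differs by the BACE1 part of its name. Comparisons with ATV:BACE1 cannot tell that part apart from the oligonucleotide. The level of Malat1 in Astrocytes, a nuclear long noncoding RNA, was 85525, 116569 and 108995 CPM (TMM-scaled) in ATV:BACE1 replicates 1, 4 and 5. In OTV:Malat1 it was at 37596, 32262 and 35731 CPM, below every library of the other groups. nonTV:Malat1 had 99433, 115680 and 108755 CPM and Malat1 ASO 112978 and 102811 CPM (replicates 1 and 5), which overlap the control. The log2 difference of OTV:Malat1 from ATV:BACE1 was -1.56 ± 0.276 (SE), 0.339 of the control level. It did not pass the adjusted threshold of 0.05 in edgeR's quasi-likelihood test without a block (adjusted p = 0.368). It passed with the replicate number as a block (log2 -1.55, adjusted p = 3.59e-07) and with DESeq2 (adjusted p = 5.8e-23). With each library left out in turn its adjusted p ran from 0.216 to 1.00. The exact two-sided permutation p was 0.1, the smallest that 3 libraries against 3 allow.

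None of the 8 members was called in any of the 5 comparisons between dosing groups (edgeR, adjusted p under 0.05). Over all 14041 genes tested, the share called was 0% with OTV:Malat1 relative to ATV:BACE1. It was likewise 0% with nonTV:Malat1 or Malat1 ASO relative to ATV:BACE1, and 0% when OTV:Malat1 was set against either of these. At an unadjusted p under 0.05, 0 members and, for OTV:Malat1 against ATV:BACE1, 209 genes passed. DESeq2 also called 0 members in each of the 5. Of all genes it called 1 (0.00712%) in each comparison of OTV:Malat1 and 0 (0%) in the other 2. With the replicate block 0 members were called, beside 1 gene (0.00712%) in each comparison but nonTV:Malat1 against ATV:BACE1, which had 0 (0%). Under the block Glul and Gjb6 had an unadjusted p under 0.05 for Malat1 ASO against ATV:BACE1, as did Glul for OTV:Malat1 against Malat1 ASO. In these blocked fits 6.90% and 4.61% of all genes had such a p.

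**Figure D2:**
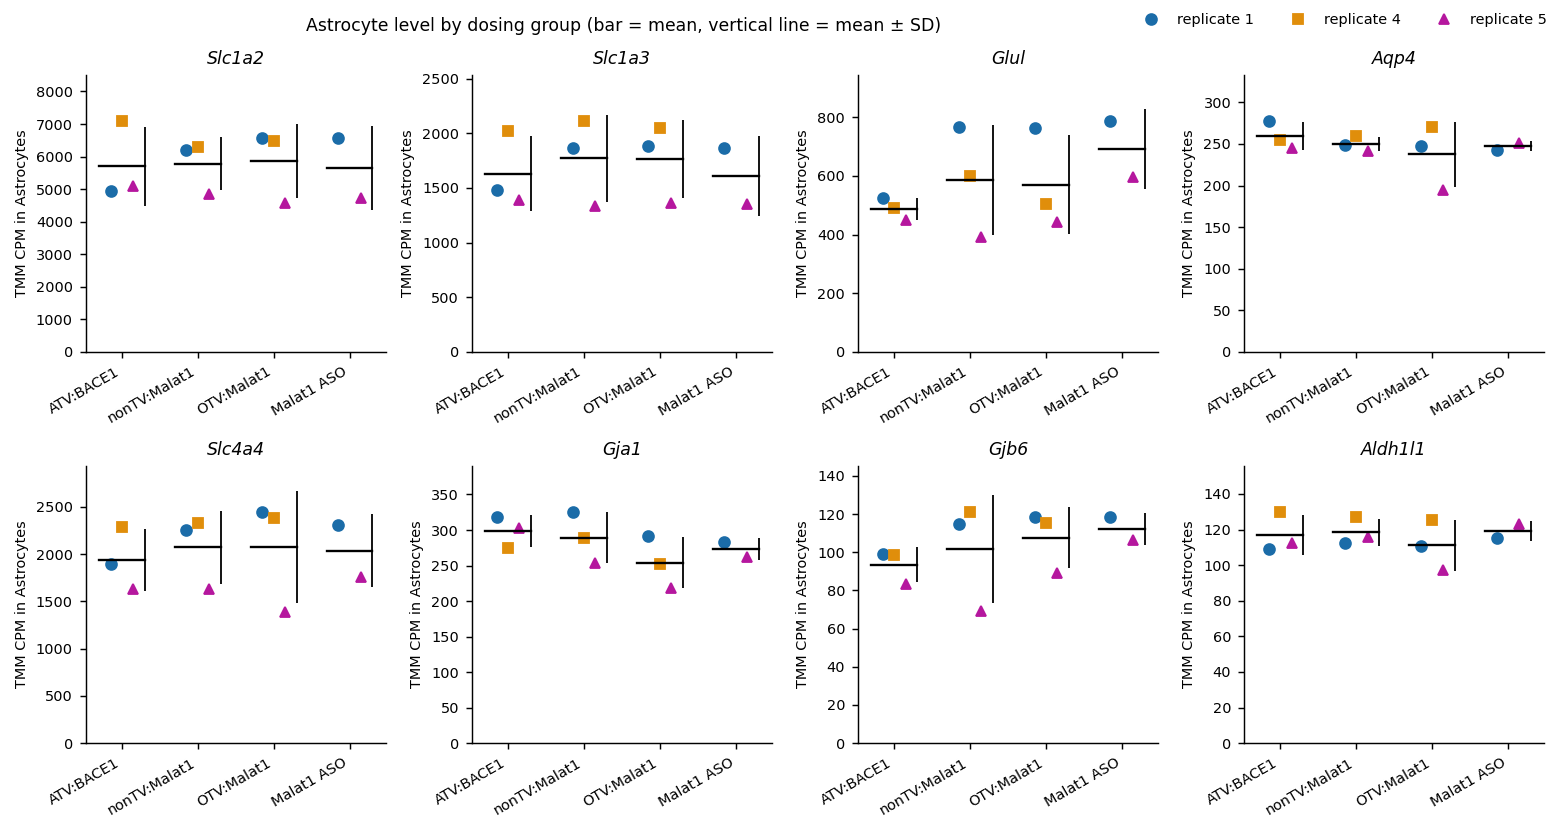
TMM-scaled CPM in Astrocytes (y axis, linear, from 0) of each library by dosing group (x axis); colour and shape give the replicate number, the bar is the group mean and the vertical line the mean ± SD. Each group overlaps ATV:BACE1, except Malat1 ASO for Glul and Gjb6, where its 2 libraries lie above, and the replicate 5 libraries (triangles) are the lowest of their group for Slc1a3, Slc4a4, Glul and Gjb6 in each group.

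Slc1a2 was at 4938, 7101 and 5081 CPM in ATV:BACE1 replicates 1, 4 and 5, and at 6567, 6478 and 4564 CPM in OTV:Malat1. The nonTV:Malat1 libraries had 6188, 6310 and 4862 CPM and the Malat1 ASO libraries 6560 and 4732 CPM (replicates 1 and 5). The groups overlapped throughout. The log2 difference of OTV:Malat1 from ATV:BACE1 was 0.041 (95% interval -0.46 to 0.54, edgeR adjusted p = 1.00). It was 0.41 between the replicate 1 libraries, -0.13 between those of replicate 4 and -0.15 between those of replicate 5.

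Slc1a3 gave the same picture. ATV:BACE1 had 1478, 2022 and 1392 CPM in replicates 1, 4 and 5, and OTV:Malat1 1882, 2049 and 1361 CPM. The log2 difference was 0.11 (95% interval -0.37 to 0.60), with the replicate 1 control library the only one far from its counterparts of that number, which lay between 1867 and 1882 CPM.

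Glul showed the largest difference among the members. ATV:BACE1 had 524, 490 and 448 CPM, OTV:Malat1 762, 505 and 442 CPM, nonTV:Malat1 767, 601 and 390 CPM (replicates 1, 4 and 5) and Malat1 ASO 788 and 596 CPM (replicates 1 and 5). The Malat1 ASO libraries were above the 3 control libraries. The log2 difference of Malat1 ASO from ATV:BACE1 was 0.51 ± 0.264 (95% interval -0.050 to 1.06), with edgeR adjusted p = 1.00 without a block. With the replicate block it was 0.49 ± 0.142 (edgeR unadjusted p = 0.00169, adjusted p = 0.423). The exact two-sided permutation p was 0.2, the smallest that 2 libraries against 3 allow. For OTV:Malat1 the log2 difference was 0.23 (-0.27 to 0.73) and for nonTV:Malat1 0.27 (-0.23 to 0.77).

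Aqp4 was at 278, 254 and 245 CPM in the ATV:BACE1 libraries and 248, 270 and 194 CPM in the OTV:Malat1 libraries, a log2 difference of -0.12 (95% interval -0.44 to 0.19). The groups overlapped, and the lowest value was that of OTV:Malat1 replicate 5. Slc4a4 was at 1893, 2284 and 1632 CPM in ATV:BACE1 and at 2446, 2382 and 1389 CPM in OTV:Malat1, a log2 difference of 0.099 (-0.40 to 0.60). OTV:Malat1 held both the highest and the lowest library of all 11.

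Of the connexins, Gja1 was at 319, 274 and 303 CPM in ATV:BACE1 and at 292, 252 and 219 CPM in OTV:Malat1. It was lower in OTV:Malat1 within each of the 3 replicate numbers, with a log2 difference of -0.23 (95% interval -0.56 to 0.11, no block) and overlapping ranges. With the replicate block the Gja1 difference was -0.23 ± 0.112 (edgeR unadjusted p = 0.0510), not called after adjustment. Gjb6 was at 98.9, 98.5 and 83.1 CPM in ATV:BACE1 and at 118, 115 and 89.2 CPM in OTV:Malat1. It was higher in OTV:Malat1 within each of the 3 numbers, with a log2 difference of 0.21 (-0.19 to 0.62, no block). With the block the Gjb6 difference was 0.21 ± 0.129 (edgeR unadjusted p = 0.122). For Malat1 ASO the Gjb6 libraries, at 118 and 106 CPM, were above the control range, with a log2 difference of 0.26 (-0.19 to 0.71). With the replicate block this difference was 0.34 ± 0.148 (edgeR unadjusted p = 0.0272, adjusted p = 0.640). Aldh1l1 was at 109, 130 and 112 CPM in ATV:BACE1 and at 111, 125 and 97.1 CPM in OTV:Malat1, a log2 difference of -0.065 (-0.38 to 0.25).

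**Figure D3:**
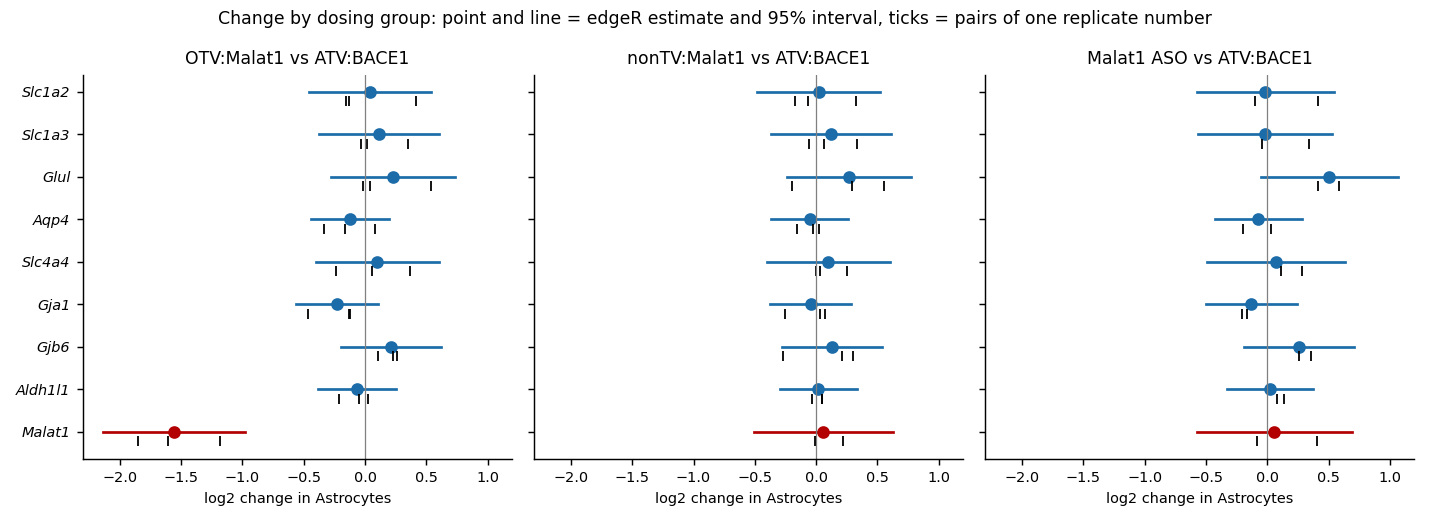
Log2 change in Astrocytes (x axis) of each member (blue) and Malat1 (red) against ATV:BACE1, 1 panel per dosing group; points and lines are edgeR estimates with 95% intervals, and ticks are differences between libraries of one replicate number. In this fit, which has no block, the members' intervals all include 0, and only Malat1 with OTV:Malat1 lies away from it, at -1.56. With the replicate block, not drawn here, Glul and Gjb6 had an unadjusted p under 0.05 for Malat1 ASO (edgeR).

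Over the members, the median log2 difference was 0.070 with OTV:Malat1, 0.059 with nonTV:Malat1 and 0.0049 with Malat1 ASO, each relative to ATV:BACE1. The medians over all genes tested were 0.0056, -0.0024 and -0.0014. Malat1 ASO has no library of replicate number 4, and with the replicate block its median over the members was 0.11 (6 of 8 higher, against 4 of 8 without the block), beside 0.00024 over all genes. These comparisons share their control libraries. Without the block, the 95% intervals of 8 of 8 members stayed within a log2 change of 1 either way for OTV:Malat1 and for nonTV:Malat1. For Malat1 ASO this held for 7, with Glul as the exception. Without ATV:BACE1 replicate 1, the library that stood apart for Slc1a3 and Glul, 0 members were called in the 3 comparisons. The median was then -0.0050 with OTV:Malat1, 0.027 with nonTV:Malat1 and -0.024 with Malat1 ASO. For Glul, where that library is the highest control, the differences became larger in these comparisons. They were 0.28, 0.32 and 0.56 in that order, against 0.23, 0.27 and 0.51 with the library kept. The library was picked from these same values. After thinning, an astrocyte nucleus held a UMI of 3.49 ± 0.0891 of the 8 members in ATV:BACE1 and of 3.53 ± 0.291 in OTV:Malat1 (SD over 3 libraries). The thinning left out 28.7% and 24.4% of the Astrocytes of these groups.

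The other genes of the same pathways gave 0 calls in Astrocytes as well, in each of the 3 comparisons with ATV:BACE1 (edgeR). Counts are of genes that passed the expression filter. Among 6 potassium and sodium partners, Fxyd1 had a log2 difference of -0.23 with OTV:Malat1. Among 13 other genes of glutamate, glutamine and GABA handling, the largest difference at 50 CPM or more with OTV:Malat1 was 0.25, for the glutamine transporter Slc38a3. Among 9 genes of endfoot anchoring and volume it was -0.34 for Mlc1. Among 17 other astrocyte genes it was -0.37 for the transcription factor Sox9, and among 7 genes of astrocyte regions -0.42 for angiotensinogen, Agt. Among 7 bicarbonate, lactate and acid genes, the largest difference at 50 CPM or more with OTV:Malat1 was 0.067, for Car2. Slc4a10, a bicarbonate transporter on that list, differed by -0.020 with OTV:Malat1, by -0.30 with nonTV:Malat1 and by -0.78 with Malat1 ASO. The lists of 3 other connexins and 6 folate genes likewise held no called gene, and Mthfs differed by -0.094 with OTV:Malat1. These lists were described by counts and values only.

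Outside Astrocytes, 0 of 44 pairs of member and class were called in each of the 3 comparisons with ATV:BACE1 (edgeR, 7 classes). The share called over all genes and these classes was 0.00626% with OTV:Malat1, 0% with nonTV:Malat1 and 0% with Malat1 ASO. At an unadjusted p under 0.05 there were 1, 3 and 4 pairs of the 44, where 2.45%, 2.24% and 2.68% of all genes and classes had such a p. The pair with OTV:Malat1 was Slc4a4 in Pericytes, with a log2 difference of 0.89 (edgeR unadjusted p = 0.0145). That pair also had the lowest p with nonTV:Malat1, at 1.29 (edgeR unadjusted p = 0.00043, adjusted p = 0.332). Slc4a4 in Pericytes rests on 5 to 41 UMIs per library. DESeq2 called 0 pairs in each of the 3 comparisons, and 0.00783%, 0% and 0.00157% of all genes and classes. With the replicate block, 2 pairs were called for Malat1 ASO, where 0.0579% of all genes and classes were. One was Glul in Leptomeningeal cells, at 344, 338 and 238 CPM in ATV:BACE1 (replicates 1, 4 and 5) and 671 and 525 CPM in Malat1 ASO (replicates 1 and 5). Its log2 difference was 0.96 ± 0.199 (block, adjusted p = 0.0381) and its adjusted p without the block 0.999. The other was Slc1a2 in Vascular endothelium, at 487, 383 and 409 CPM in ATV:BACE1 and 190 and 146 CPM in Malat1 ASO. These rest on 23 to 74 and 19 to 27 UMIs per library, and the log2 difference was -1.38 ± 0.284 (block, adjusted p = 0.0209; without the block 0.1). The other 4 members tested in Vascular endothelium had log2 differences below 0 as well in the test without the block, -1.56 for Slc1a3 (unadjusted p = 0.00947), -1.03 for Slc4a4 (0.073), -0.72 for Gja1 (0.198) and -0.18 for Glul (0.537). Over all 11 libraries these genes had 2 to 18, 3 to 34, 3 to 15 and 25 to 65 UMIs per library there, in that order. Slc1a2 in Pericytes, a class that shares endothelial markers, differed by -0.65 (unadjusted p = 0.0316). The other members tested in Pericytes went both ways, at 0.27 for Gja1, 0.091 for Slc1a3, -0.089 for Slc4a4 and -0.26 for Glul. None of these passed the adjusted threshold, and the part of astrocyte RNA in them was not tested. Both pairs separate the 2 groups without overlap, and neither was called without the block.

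Slc1a3, Slc4a4, Glul, Slc1a2 and Gjb6, 5 of the 8 members, differed between replicate numbers 1, 4 and 5 in Astrocytes with the dosing group in the fit (edgeR F test, adjusted p under 0.05). Of all 14041 genes, 19.5% were called in this test. DESeq2 called 4 members, without Gjb6 (adjusted p = 0.116), and 7.52% of all genes. Slc1a3 (adjusted p = 0.00054), Slc4a4 (0.000718), Glul (0.000718), Slc1a2 (0.0115) and Gjb6 (0.0223) had their lowest mean in number 5. Aqp4 (0.452), Gja1 (0.144) and Aldh1l1 (0.257) were not called.

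The 4 libraries of number 5 had Slc1a3 at 1337 to 1392 CPM, below the 4 libraries of number 1 at 1478 to 1882 and the 3 of number 4 at 2022 to 2115 CPM. The log2 difference of number 5 from number 4 was -0.61 ± 0.109. Slc4a4 behaved alike, at 1389 to 1763 CPM in number 5 against 1893 to 2446 in number 1 and 2284 to 2382 CPM in number 4, a log2 difference from number 4 of -0.57 ± 0.114. Slc1a2 in number 5, at 4564 to 5081 CPM, lay below number 4, at 6310 to 7101 CPM, and overlapped number 1, where ATV:BACE1 was at 4938 CPM. Its log2 difference from number 4 was -0.48 ± 0.122.

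Glul had another order. Number 1 was highest with 710 ± 125 CPM (n = 4), against 532 ± 60.4 in number 4 (n = 3) and 469 ± 88.6 CPM in number 5 (n = 4). The log2 difference of number 5 from number 1 was -0.60 ± 0.108, and the ranges overlapped through ATV:BACE1 replicate 1 at 524 CPM. Gjb6 was at 113 ± 9.25, 112 ± 11.7 and 87.0 ± 15.4 CPM in numbers 1, 4 and 5.

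**Figure D4:**
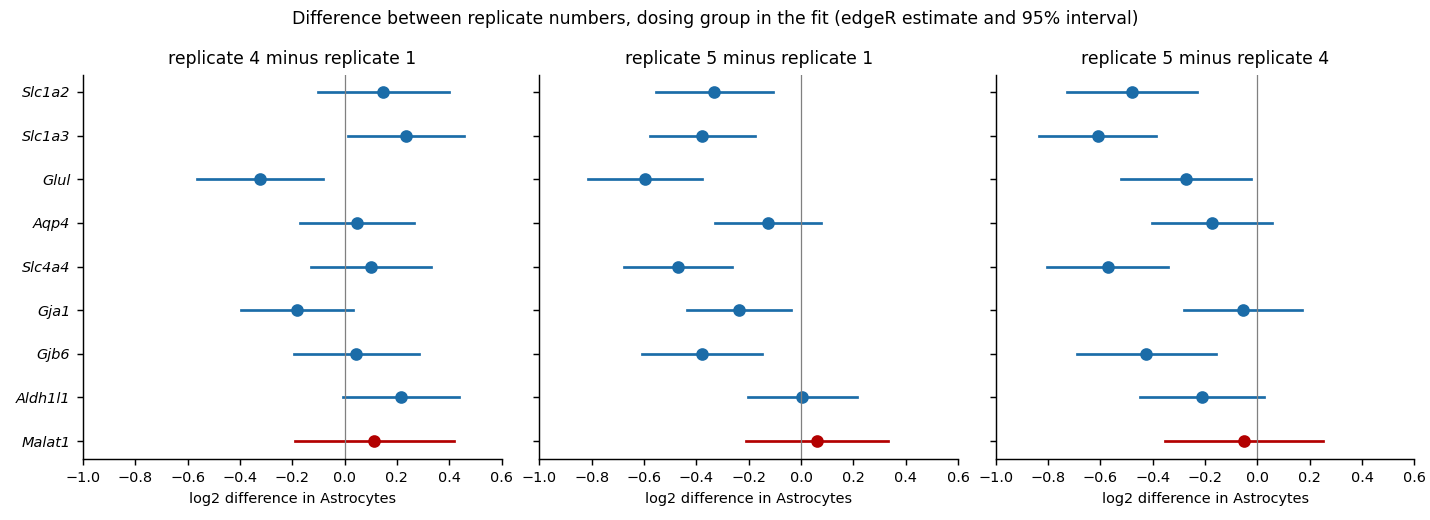
Log2 difference in Astrocytes (x axis) between pairs of replicate numbers for each member (blue) and Malat1 (red), with the dosing group in the fit; points and lines are edgeR estimates with 95% intervals. Number 5 lies below number 4 for Slc1a3, Slc4a4, Slc1a2, Gjb6 and Glul with intervals away from 0, and Malat1 includes 0 in the 3 panels.

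Other values moved with the replicate number. Astrocyte nuclei in number 5 had medians of 890 to 1298 UMIs, against 1256 to 1705 in numbers 1 and 4. Astrocytes made up 6.29% to 9.95% of a library's nuclei in number 5 and 11.4% to 17.9% in the others. Of them, 80.7% to 85.6% lay in the main cluster in number 5, against 87.7% to 91.9%. A prediction score of at least 0.8 was held by 80.1% to 89.5% in number 5, against 90.2% to 95.1%. The summed level of 6 neuronal markers in Astrocytes was 620 to 887 CPM in number 5, 407 to 639 in number 1 and 526 to 580 CPM in number 4. For 6 oligodendrocyte markers it was 1203 to 1754, 1115 to 1509 and 976 to 1169 CPM. Microglial markers (4) reached 123 to 180 CPM in number 5 and 73.4 to 126 CPM in the others. Endothelial markers (4) summed to 97.0 to 169 CPM in number 5, 44.0 to 91.0 in number 1 and 63.8 to 112 CPM in number 4. Mean sums in numbers 1, 4 and 5 were 48.1, 45.8 and 65.2 CPM for ependymal markers and 134, 117 and 146 CPM for pericyte markers. The sums that were not highest in number 5 were those of leptomeningeal (60.5, 54.9 and 56.8 CPM), choroid plexus (1166, 924 and 1139 CPM) and oligodendrocyte precursor markers (61.6, 77.8 and 77.3 CPM). None of these markers was at 0, and their part in the differences was not tested. The 8 other astrocyte markers summed to 1568 to 1677 CPM in number 5, 1824 to 1943 in number 1 and 1770 to 1886 CPM in number 4. With nuclei of at least 1000 UMIs the count of members was 5, and in the main astrocyte cluster alone it was 4, where Gjb6 was lost (adjusted p = 0.32). Gjb6 was also lost without TMM (0.112) and with scores of at least 0.8 (0.143), and in all in 6 of 19 alternatives. Without nonTV:Malat1 replicate 5, or without OTV:Malat1 replicate 5, the count was 3, as Slc1a2 (0.0502 and 0.0843) and Gjb6 (0.243 and 0.0702) were lost. Without ATV:BACE1 replicate 4, Slc1a2 alone was lost (0.0762). Slc1a3, Slc4a4 and Glul were called under each of the 19 alternatives run. Apart from DESeq2, the share of all genes called under each alternative was not set beside these counts.

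Genes of the related lists differed with replicate number too. Of 13 other glutamate, glutamine and GABA genes, 8 were called. Of these, 6 were lower in number 5 than in number 4, among them the metabotropic receptor Grm3 (log2 -0.66), the GABA transporter Slc6a11 (-0.48), glutamate dehydrogenase Glud1 (-0.39) and the cystine-glutamate exchanger Slc7a11 (-0.31). The other 2, higher in number 5, were the neuronal glutamate transporter Slc1a1 (0.66) and Grm5 (0.14). Of 17 other astrocyte genes, 9 were called and the 9 were lower in number 5 than in number 4, among them the zinc transporter Slc39a12 (-0.57) and Fgfr3 (-0.50). Of 9 endfoot genes 4 were called, the 4 lower in number 5, led by the laminin Lama2 (-0.59) and dystrophin, Dmd (-0.48). Of 7 region genes 4 were called, again all lower, led by Etnppl (-0.67). Gjc3, an oligodendrocyte connexin gene and the called one of 3 tested, was higher in number 5 (0.72). Slc4a10 (-0.43) and Car8 (-0.33) were called of the 7 bicarbonate, lactate and acid genes, and 0 of 6 folate genes were. Of the 2737 genes called over the whole table, 46.9% were lower in number 5 than in number 4.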

How the data were processed

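The members and gene lists were chosen with earlier results of these data known. Nuclear RNA was captured by droplet single-nucleus sequencing; the submitters' processing notes name Cell Ranger 5.0.0, Seurat 4 and mm10, without further settings. The deposited matrix holds whole-number UMI counts per gene symbol and nucleus, per the file headers, and its column sums equalled the deposited totals in 110304 nuclei. The deposited metadata also give mitochondrial content as a percent and a class prediction score as a fraction, with class, cluster, doublet call and batch. Called doublets, 2.48% of Astrocytes, were kept in the main analysis. Library totals were 33235994 to 43972886 UMIs, and per-sample columns left unused numbered 0.

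Counts were summed per library and deposited class (at least 20 nuclei). Levels over classes are plain CPM. Groups were tested with edgeR 4.0.16 (R 4.3.3; TMM, filterByExpr, glmQLFit and glmQLFTest, 4 groups in 1 fit, no block), with Benjamini-Hochberg adjustment over all genes of a fit and a threshold of 0.05; DESeq2 1.42.0 was an alternative. The code was tested on simulated data. Libraries of a group differ in labelled sex or age and so cannot come from the same animal, which no source states outright. The p-values measure the spread between these libraries. Replicate numbers were taken as pairing libraries because each number has its own deposited batch. Deviations from group means over 8030 genes had r of 0.207 to 0.574 between libraries of the same number (15 pairs). Python 3.11.15, numpy 2.4.6, scipy 1.17.1 and matplotlib 3.10.9 were used for sums, exact tests and plots. The named genes are the 8 members, Malat1, the 8 genes most alike over classes, and from each list the called genes or up to 3 with the largest difference at 50 CPM or more. Results of some list genes are not reported here. Alternatives were DESeq2, no TMM, Malat1 left out, no expression filter, the replicate block, each library left out, and subsets of nuclei by depth, doublet call, score or cluster. Intervals and thinning cover counting error and library spread only.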

Additional observations from a re-analysis of the deposited data

Results flagged for a closer look

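Dosing groups of 3 or fewer libraries are too small for a check of single outlying libraries, so libraries sharing a replicate number were used, for the numbers with 4. In 16 such sets of 4, the level in Astrocytes of 1 library lay beyond Dixon's critical value of 0.829 in 3, where chance gives about 1 in 20. That rate is a rough guide, as the 16 sets share libraries. Each set also mixes the dosing groups, so a dosing difference cannot be told apart from a single deviating library. Slc1a3 in ATV:BACE1 replicate 1 was at 1478 CPM against 1867 to 1882 CPM in the other libraries of that number. Glul in the same library was at 524 CPM against 762 to 788 CPM. Aqp4 in OTV:Malat1 replicate 5, the shallowest astrocyte library, was at 194 CPM against 242 to 251 CPM.

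The female pair and both male pairs moved in opposite directions in 3 instances, and these differences were not tested. All 8 members were scanned in each comparison with a pair for every replicate number, so random signs alone would give some such instances. Slc1a2 differed between OTV:Malat1 and ATV:BACE1 by a log2 of 0.41 in the female pair and by -0.13 and -0.15 in the male pairs. Aldh1l1 differed in the same comparison by 0.023 against -0.050 and -0.21. Slc1a2 differed between nonTV:Malat1 and ATV:BACE1 by 0.33 against -0.17 and -0.06. The Slc1a2 values use the same ATV:BACE1 replicate 1 library, and sex cannot be told apart from batch.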

How the results depend on the processing

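The 5 comparisons of dosing groups in Astrocytes gave 0 called members in the main test and under each of 20 alternatives per comparison, the replicate block included. Among 800 values of single members under an alternative, 84 had another sign than the main value, and in 3 the move was larger than the main standard error. These were Glul for OTV:Malat1 against ATV:BACE1 without OTV:Malat1 replicate 1 (log2 -0.048, with a range of -0.048 to 0.37 over single libraries left out), Glul for OTV:Malat1 against nonTV:Malat1 without nonTV:Malat1 replicate 1 (0.20, range -0.33 to 0.20) and Gjb6 in the same comparison without nonTV:Malat1 replicate 5 (-0.11, range -0.11 to 0.22). The count of members that differed with replicate number was 5, ran from 3 to 5 when each library was left out, and was 4 or 5 otherwise. Astrocytes were the highest class for 7 members with doublets left out, with nuclei of at least 1000 UMIs and with scores of at least 0.8.

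For Malat1 with OTV:Malat1, the log2 difference passed the threshold under 6 alternatives: DESeq2 (-1.56), no TMM (-1.47), no filter on low counts (-1.55), the replicate block (-1.55), scores of at least 0.8 (-1.67) and the main astrocyte cluster (-1.62). With a library left out it ran from -1.68 to -1.47 and was not called. Outside Astrocytes the replicate block gave 2 called pairs for Malat1 ASO and changed no other call of a member. The cause of these differences was not tested. As to depth, Gjb6 rests on 91 to 380 and Aldh1l1 on 99 to 373 UMIs per astrocyte library.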
